A study of Mus musculus with 12 samples.

Results

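Expression of 24011 genes was compared between liver sinusoidal endothelial cells (LSECs) of mice that lack stabilin-2 and of wild-type mice. The comparison took the 3 arrays labelled Stab2KO and the 3 labelled WT, 6 of the 12 arrays of the study. The other 6 arrays hold cells without stabilin-1 (Stab1KO) and cells without both stabilins (DKO), with 3 arrays each. All mice were C57BL/6J and 3 to 4 months old. Each array holds RNA from a pool of 3 mice of 1 genotype, so the error terms describe the spread between pools. The livers were perfused, the cells were bound to CD146 magnetic beads, and RNA was taken directly after isolation. CD146 is not specific to LSECs, and the labels give no value for the purity of the preparations, including any capture of other cells. The sources used here do not give whether Stab2KO and WT mice were littermates, nor how the Stab2 allele was made.

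LSECs form the fenestrated wall of the liver sinusoid and clear waste macromolecules from the blood by endocytosis. Stabilin-2, the product of Stab2, is a large class H scavenger receptor of these cells. It is known for the uptake of hyaluronan, a glycosaminoglycan of the extracellular matrix, and of other polyanions such as heparin and chondroitin sulfate. Its relative stabilin-1 shares several ligands with it. Hepatic stellate cells, the pericytes of the sinusoid, lie directly against LSECs and store vitamin A as retinyl ester. They also secrete matrix proteins, bone morphogenetic proteins and growth factors.

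Stab2 followed the labels in each array. On the log2 scale it measured 12.99, 13.07 and 13.09 in the WT pools and 7.40, 6.76 and 6.26 in the Stab2KO pools. The groups were far apart, and the Stab2KO values stayed above the array median of 5.11. Stab2 fell by 6.24 ± 0.44 (SE, n = 3 pools a group, adjusted p = 0.00023), and the exact two-sided permutation p was 0.1, the smallest that 3 against 3 arrays allow. Stab1 measured 12.55, 12.46 and 12.62 in WT and 12.48, 12.52 and 12.59 in Stab2KO, groups that overlap, with a difference of -0.01 ± 0.12 (exact permutation p = 0.8). The endothelial label held: the mean level of 28 measured LSEC identity genes, Stab2 left out, was 12.25 to 12.31 in WT and 12.26 to 12.31 in Stab2KO, near the top of the arrays' range of 2.94 to 13.9. Correlations across genes between the 6 arrays lay between 0.988 and 0.996. DKO replicate 3, which enters the model only through the shared estimate of spread, correlated with the other arrays at 0.956 to 0.968.

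Without stabilin-2, 11 of 23 measured genes of hepatic stellate cells and 4 of 26 of collagens and proteoglycans fell, while LSEC identity genes and scavenger receptor genes other than Stab2 did not pass the test. Against WT, the stellate list median was -0.99 in Stab2KO, -1.49 in Stab1KO and -1.07 in DKO, comparisons that share the WT arrays. The phospholipase gene Pla2g7 rose 11.7-fold, Nt5dc3, the neighbour of Stab2, rose 6.6-fold, and the meiotic recombination gene Msh5 rose 6.18-fold. The urea cycle gene Ass1 fell 5.80-fold and the melanocyte differentiation gene Lrmda fell 4.45-fold. In all, 71 of 24011 genes were called at an adjusted p under 0.05, which is 0.296%. Of these, 20 were higher (0.0833%) and 51 lower (0.212%), counting Stab2 itself. The median difference of all genes was 0.007 log2, and 1830 genes had an unadjusted p under 0.05. In each of the 71 the Stab2KO arrays lay all above or all below the WT arrays, which held for 15.7% of all genes tested. Where groups of a called gene are described below as apart, this is thus no further evidence for it. An absolute log2 difference of at least 1 was reached by 42 of the 71. The count depended on single pools: leaving out WT replicate 2 gave 37, leaving out WT replicate 3 gave 42, and leaving out Stab2KO replicates 1 and 2 gave 47 and 33.

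**Figure D1:**
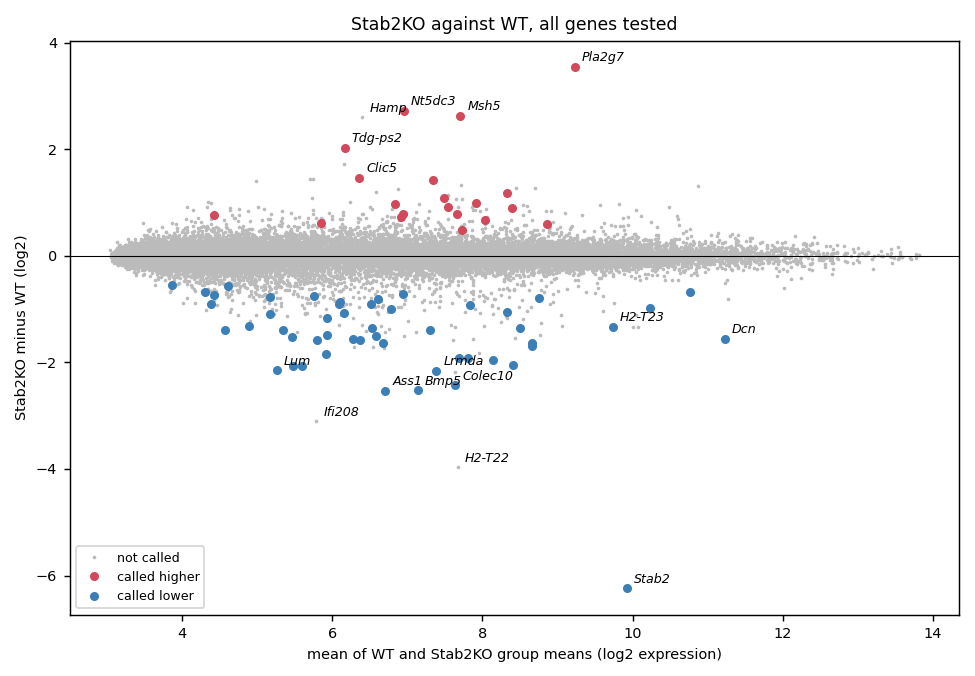
Stab2KO minus WT (vertical axis, log2) against the mean of both group means (horizontal axis, log2 expression), 1 point for each of 24011 genes, with called genes coloured. Stab2 lies far below all other genes at -6.24, Pla2g7 is the highest called point at 3.54, and 51 of the 71 called genes lie below 0.

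Pla2g7 encodes the lipoprotein-associated phospholipase A2 that hydrolyses platelet activating factor and oxidized phospholipids. It measured 7.33, 7.60 and 7.44 in WT and 11.04, 11.01 and 10.95 in Stab2KO. The Stab2KO pools lay within a narrow band far above WT, and the rise was 3.54 ± 0.55 (adjusted p = 0.028). Left out in turn, each of the 6 arrays ended this call, with adjusted p-values up to 0.12, while the difference stayed between 3.48 and 3.62. The spread that enters this test comes mainly from the DKO group, where Pla2g7 measured 7.41, 7.76 and 10.15. Without DKO replicate 3, the high array, the adjusted p was 5.6e-06, and with the 6 compared arrays alone it was 5.6e-05. Of the 22 measured genes of lipid handling and platelet activating factor, Pla2g7 was the only one called, and the median of that list was -0.14.

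Nt5dc3, a gene of the 5'-nucleotidase domain family, measured 5.56, 5.44 and 5.78 in WT and 8.29, 8.38 and 8.27 in Stab2KO, with a rise of 2.72 ± 0.19 (adjusted p = 0.00023). Msh5, whose protein works in meiotic crossover formation, measured 6.57, 6.33 and 6.28 in WT and 9.34, 8.75 and 8.97 in Stab2KO. Both genes had groups that were clearly apart, and Msh5 rose by 2.63 ± 0.28 (adjusted p = 0.0044). The other 11 measured genes of meiosis and mismatch repair were not called. Clic5, which encodes a chloride intracellular channel protein linked to the actin cortex, measured 5.80, 5.41 and 5.67 in WT and 7.27, 7.03 and 6.96 in Stab2KO. It rose by 1.46 ± 0.17 (adjusted p = 0.0070), and none of the other 10 measured channel and ezrin family genes was called. Nt5dc3, Msh5 and Clic5 kept their calls without each of the 6 arrays in turn.

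The 250 bases before the transcription start are shown for Pla2g7, the largest rise, for Nt5dc3, the neighbour of Stab2, for Ass1 and Lrmda, falls outside the stellate list, and for the stellate genes Bmp5 and Lrat among the largest falls. They are taken from RefSeq (GRCm38.p6) and printed 5′ to 3′ on the strand of the gene. Capitals mark matches on either strand to the GC box GGGCGG, the CCAAT box CCAAT or the TATA box TATAAA. The windows lie at Nt5dc3 (chr10:86778755-86779004, plus strand), Pla2g7 (chr17:43568201-43568450, plus strand), Ass1 (chr2:31470020-31470269, plus strand), Lrmda (chr14:22019462-22019711, plus strand), Bmp5 (chr9:75775115-75775364, plus strand) and Lrat (chr3:82903975-82904224, minus strand).
Nt5dc3: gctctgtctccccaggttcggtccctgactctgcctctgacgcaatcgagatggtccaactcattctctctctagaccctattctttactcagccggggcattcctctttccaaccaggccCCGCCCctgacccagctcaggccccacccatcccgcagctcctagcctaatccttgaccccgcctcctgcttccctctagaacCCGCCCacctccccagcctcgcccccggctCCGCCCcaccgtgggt
Pla2g7: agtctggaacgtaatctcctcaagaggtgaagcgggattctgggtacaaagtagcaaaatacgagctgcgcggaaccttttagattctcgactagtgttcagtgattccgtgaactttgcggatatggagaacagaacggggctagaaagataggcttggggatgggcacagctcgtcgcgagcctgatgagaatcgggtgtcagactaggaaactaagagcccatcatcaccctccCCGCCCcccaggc
Ass1: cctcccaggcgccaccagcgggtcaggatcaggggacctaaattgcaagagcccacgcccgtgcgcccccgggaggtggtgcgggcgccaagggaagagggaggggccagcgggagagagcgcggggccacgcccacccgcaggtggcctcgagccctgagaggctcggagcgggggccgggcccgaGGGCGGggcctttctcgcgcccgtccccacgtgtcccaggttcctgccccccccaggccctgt
Lrmda: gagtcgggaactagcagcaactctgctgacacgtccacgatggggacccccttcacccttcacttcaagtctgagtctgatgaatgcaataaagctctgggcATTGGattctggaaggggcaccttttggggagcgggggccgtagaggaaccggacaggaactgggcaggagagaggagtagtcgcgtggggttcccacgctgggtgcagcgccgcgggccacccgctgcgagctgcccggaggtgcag
Bmp5: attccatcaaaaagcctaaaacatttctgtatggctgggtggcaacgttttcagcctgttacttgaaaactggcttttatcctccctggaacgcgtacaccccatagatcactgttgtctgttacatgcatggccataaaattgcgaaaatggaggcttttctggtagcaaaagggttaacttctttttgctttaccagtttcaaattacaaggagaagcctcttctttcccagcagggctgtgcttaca
Lrat: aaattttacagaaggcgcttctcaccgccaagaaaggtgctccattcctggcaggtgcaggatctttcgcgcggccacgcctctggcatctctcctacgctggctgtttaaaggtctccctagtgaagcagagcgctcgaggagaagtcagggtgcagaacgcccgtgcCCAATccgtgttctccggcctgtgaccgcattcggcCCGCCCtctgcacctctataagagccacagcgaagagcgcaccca
The window of Nt5dc3 held 3 GC boxes, those of Pla2g7 and Ass1 1 each, that of Lrmda 1 CCAAT box and that of Lrat 1 CCAAT box and 1 GC box, and none of these letters occurred in the window of Bmp5. A promoter was listed for 14 of the 20 genes called higher and for 36 of the 50 called lower beside Stab2. The GC box was present in 78.6% of the higher set (11 of 14) and 41.7% of the lower set, against 32.9% of all 27025 promoters. These 27025 include genes that were not tested here, so they are not a matched background. The CCAAT box was present in 21.4% and 27.8%, against 34.5%. The TATA box was present in 0.0% and 16.7%, against 13.0%. These shares are descriptions of letters in the windows and were not tested.

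Smaller rises were seen in single genes. Pdlim3, which encodes an actinin-binding LIM protein, measured 8.28, 7.52 and 7.40 in WT and 8.83, 8.93 and 8.99 in Stab2KO, a rise of 1.19 ± 0.20 (adjusted p = 0.039). Tnni3, the gene of cardiac troponin I, measured 6.63, 6.14 and 6.29 in WT and 7.21, 7.52 and 7.25 in Stab2KO, a rise of 0.97 ± 0.13 (adjusted p = 0.012). In both genes WT replicate 1 was the WT pool nearest to the Stab2KO pools. These were the 2 genes called among 18 of smooth muscle and sarcomere, whose median was 0.13, and -0.01 with Stab2KO replicate 3 left out. The count of 2 became 0 with WT replicate 2, WT replicate 3 or Stab2KO replicate 2 left out, and 1 with Stab2KO replicate 1 or 3 left out. The smooth muscle genes Acta2, Tagln and Myh11 had 1 high array, Stab2KO replicate 3, at 9.55, 7.33 and 7.36 against 6.89, 6.18 and 5.88 in WT replicate 1. Pdlim3 was also highest in that array, at 8.99 against 8.83 and 8.93, and Tnni3 was highest in Stab2KO replicate 2. The part of that array in these rises was not tested. Sncg, the gene of gamma-synuclein, measured 7.44, 6.70 and 6.70 in WT and 8.02, 7.91 and 8.18 in Stab2KO, with a rise of 1.09 ± 0.18 (adjusted p = 0.041). The calls were lost without WT replicates 2 or 3 or Stab2KO replicate 2 for Tnni3 (adjusted p up to 0.074), and without any array but WT replicate 1 for Pdlim3 and Sncg (up to 0.23 each).

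Sdc1 encodes syndecan-1, a cell-surface heparan sulfate proteoglycan that also marks plasma cells. It measured 7.68, 7.17 and 7.39 in WT and 8.39, 8.35 and 8.48 in Stab2KO, and rose by 0.99 ± 0.12 (adjusted p = 0.0090). Gpc4, which encodes glypican-4 of the other heparan sulfate proteoglycan family, went the other way and fell by 0.82 ± 0.11 (adjusted p = 0.012). The other 13 measured syndecan, glypican and related genes were not called. Among 12 measured B and plasma cell genes, Sdc1 was the only one called, 10 lay above WT, and the median was 0.37, or 0.13 with WT replicate 1 left out. The mean of that list relative to the 12 arrays was -0.36 to 0.04 in WT and 0.19 to 0.31 in Stab2KO, and its part in the rise of Sdc1 was not tested. Gpc4 lost its call without WT replicate 2, WT replicate 3 or Stab2KO replicate 2 (adjusted p up to 0.071).

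The next called rises were in single genes of different functions. Ciapin1, which encodes a cytosolic iron-sulfur cluster assembly factor, measured 7.09, 6.96 and 7.21 in WT and 8.04, 8.0 and 7.96 in Stab2KO, a rise of 0.91 ± 0.11 (adjusted p = 0.0075). Nnt, which encodes the mitochondrial nicotinamide nucleotide transhydrogenase, measured 7.96, 8.07 and 7.83 in WT and 8.99, 8.97 and 8.58 in Stab2KO, a rise of 0.89 ± 0.15 (adjusted p = 0.037). Neither gene overlapped between the groups. Nnt is a gene known to carry a deletion in the C57BL/6J substrain and not in some related substrains. Its level in Stab1KO was 9.08, 8.96 and 9.21, also above WT, and in DKO 8.28, 8.46 and 8.78. Whether substrain moved with genotype was not tested.

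Gja5 encodes connexin 40 of arterial endothelium and measured 6.71, 6.35 and 6.6 in WT and 7.46, 7.29 and 7.25 in Stab2KO, a rise of 0.78 ± 0.12 (adjusted p = 0.023). Cmklr1, which encodes the receptor of the chemoattractant chemerin, measured 7.30, 7.36 and 7.14 in WT and 8.04, 8.21 and 7.90 in Stab2KO, a rise of 0.79 ± 0.13 (adjusted p = 0.042). Cavin3, a coat protein gene of caveolae, measured 6.61, 6.45 and 6.59 in WT and 7.16, 7.29 and 7.36 in Stab2KO, a rise of 0.72 ± 0.12 (adjusted p = 0.042). All these groups were apart. Wdfy1, an endosomal protein gene, rose by 0.68, the matrix gene Ecm2 by 0.60 and the zinc finger gene Zfp580 by 0.49. Ciapin1, Wdfy1 and Ecm2 kept their calls without each of the 6 arrays. Cmklr1 and Cavin3 lost them without any one of the 6 (adjusted p up to 0.21 and 0.24), and Gja5 without WT replicates 2 or 3 or Stab2KO replicates 1 or 2 (up to 0.11). The calls of Nnt (up to 0.18) and Zfp580 (up to 0.23) each held without 1 array only, Stab2KO replicate 3 and WT replicate 3, respectively.

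**Figure D2:**
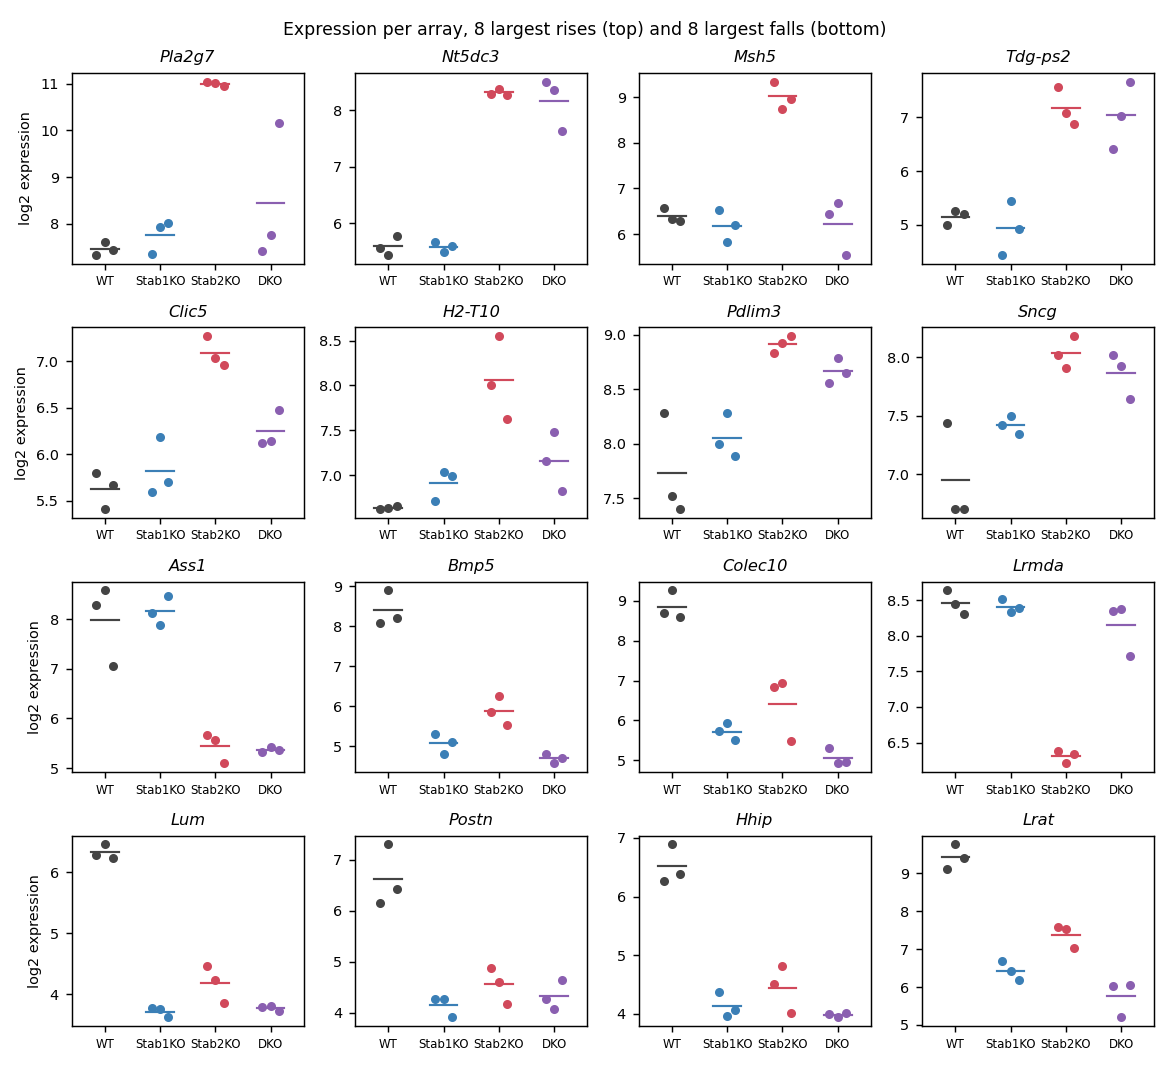
Log2 expression in each of the 12 arrays, by genotype, for the 8 largest named rises (top) and the 8 largest falls beside Stab2 (bottom). Each point is 1 pool of 3 mice and each line a group mean, on axes that do not start at 0; the Pla2g7 panel shows 3 Stab2KO pools between 10.95 and 11.04 and 1 high DKO pool at 10.15, and Ass1 is low in Stab2KO and in DKO.

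Of 50 genes that fell beside Stab2, 11 are on the list of stellate cell genes, and the cell source of the others was not tested. Of 23 measured stellate genes 11 fell and 0 rose, with a list median of -0.99 beside 0.007 for all genes, and 21 lay below WT. The list mean relative to the 12 arrays was 0.76 to 1.22 in WT and -0.14 to -0.03 in Stab2KO, so the groups did not overlap. In these bulk preparations fewer stellate cells among the isolated cells and less of these RNAs per stellate cell cannot be told apart. The list was chosen with its behaviour in these arrays known, and its count is no independent evidence of a direction. Leaving out WT replicate 2 or Stab2KO replicate 3 gave 7 falls, and leaving out Stab2KO replicate 2 gave 6. The exceptions that lay above WT were the contractile genes Acta2 (1.15 ± 0.56) and Tagln (0.24 ± 0.29), neither called. Pdgfrb, the platelet-derived growth factor receptor gene that marks pericytes, measured 6.21, 7.10 and 6.72 in WT and 5.79, 5.60 and 5.30 in Stab2KO, a difference of -1.11 ± 0.21 that did not pass (adjusted p = 0.076).

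Among the genes of vitamin A storage, Lrat, the gene of the enzyme that makes retinyl ester, measured 9.13, 9.77 and 9.42 in WT and 7.60, 7.54 and 7.02 in Stab2KO. It fell by 2.05 ± 0.26 (adjusted p = 0.0090). Bco1, which encodes the enzyme that cleaves beta-carotene to retinal, fell by 0.91 ± 0.12 (adjusted p = 0.011). It lay below the array median in all 6 arrays, at 4.73, 5.05 and 4.73 in WT and 4.10, 4.03 and 3.66 in Stab2KO, where an unknown part of the signal is background. The other 13 measured genes of retinoid storage and signalling, such as Rbp4 at -0.15 ± 0.32, were not called, and the list median was -0.07. Both calls held without each of the 6 arrays.

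The bone morphogenetic protein (BMP) ligands that fell were Bmp5, Bmp10 and Gdf2, the last encoding BMP9. BMP9 and BMP10 are circulating ligands of the endothelial receptor ALK1, the product of Acvrl1, with endoglin as a co-receptor. Bmp5 measured 8.07, 8.90 and 8.21 in WT and 5.86, 6.25 and 5.53 in Stab2KO, and fell by 2.52 ± 0.23 (adjusted p = 0.0017). Bmp10 measured 6.99, 7.21 and 6.31 in WT and 4.92, 5.24 and 4.81 in Stab2KO, and fell by 1.85 ± 0.20 (adjusted p = 0.0049). For both, every Stab2KO pool was lower than every WT pool by a wide margin. Gdf2 fell by 1.58 ± 0.23 (adjusted p = 0.016), a call lost without Stab2KO replicate 1 (adjusted p = 0.060). Genes downstream of these ligands in endothelium did not pass: Id3 differed by 0.19 ± 0.12 and Smad6 by 0.24 ± 0.12, both on the side above WT. The 22 measured BMP and GDF genes had a median of 0.03.

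Matrix genes fell in part. Lum, which encodes the small leucine-rich proteoglycan lumican, measured 6.29, 6.46 and 6.24 in WT and 4.46, 4.24 and 3.86 in Stab2KO, and fell by 2.14 ± 0.13 (adjusted p = 0.00019). Postn, which encodes periostin, measured 6.15, 7.30 and 6.43 in WT and 4.88, 4.61 and 4.18 in Stab2KO, and fell by 2.07 ± 0.28 (adjusted p = 0.012). Reln, which encodes the secreted glycoprotein reelin, measured 8.37, 9.06 and 8.51 in WT and 6.92, 6.78 and 6.47 in Stab2KO, and fell by 1.92 ± 0.32 (adjusted p = 0.041). WT replicate 2 was the highest pool for each of these genes. Decorin's gene Dcn fell by 1.56, Col14a1 by 0.92 and Col6a1 by 0.71, which with Lum made 4 of 26 collagen and proteoglycan genes, with a list median of -0.05. That count was 2 without any one of WT replicates 1, 2 or 3 or Stab2KO replicates 1 or 2. The gelatinase gene Mmp2 (-0.77), Adamtsl2 (-0.88), Ecm1 (-0.69), Srpx2 (-1.09) and the collagen receptor gene Ddr2 (-1.07) fell as well. Col14a1 and Mmp2 lost their calls without any one of the 6 arrays (adjusted p up to 0.23 and 0.17), Col6a1 and Ddr2 without any but Stab2KO replicate 3 (0.18 and 0.19), Ecm1 without any but WT replicate 3 (0.13), and Srpx2 without any WT array or Stab2KO replicate 1 (0.17). Lum and Dcn held without each array, Postn lost its call without Stab2KO replicate 2 (adjusted p = 0.062) and Reln without any one of the 6 (up to 0.23).

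Collectins are soluble lectins of innate defence. Colec10 measured 8.69, 9.26 and 8.59 in WT and 6.85, 6.93 and 5.49 in Stab2KO, and fell by 2.43 ± 0.33 (adjusted p = 0.013). Colec11 measured 8.57, 9.13 and 8.62 in WT and 7.09, 6.88 and 6.58 in Stab2KO, and fell by 1.93 ± 0.17 (adjusted p = 0.0011). The lowest value of Colec10 came from Stab2KO replicate 3, and its call was lost without WT replicate 2 (adjusted p = 0.073). They were the 2 genes called among 18 of collectins and complement, whose median was -0.47. Fcna, the ficolin gene of that list, is also on the Kupffer cell list and differed by -1.55 ± 0.34 without passing (adjusted p = 0.14).

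Several single genes of signals and receptors fell. Cxcl12, the chemokine gene known for holding haematopoietic cells in their niche, measured 9.32, 9.77 and 9.45 in WT and 7.89, 7.88 and 7.67 in Stab2KO, and fell by 1.70 ± 0.19 (adjusted p = 0.0062). Hhip, which encodes a decoy that binds hedgehog ligands, measured 6.27, 6.89 and 6.39 in WT and 4.51, 4.81 and 4.02 in Stab2KO, and fell by 2.06 ± 0.21 (adjusted p = 0.0034). Agtr1a, an angiotensin II receptor gene, measured 7.39, 7.65 and 7.47 in WT and 5.74, 5.95 and 5.89 in Stab2KO, and fell by 1.64 ± 0.17 (adjusted p = 0.0043). In these 3 genes the groups were well apart, and they kept their calls without each of the 6 arrays. Tlcd4 measured 9.09, 9.57 and 8.69 in WT and 7.40, 7.31 and 6.79 in Stab2KO, and fell by 1.95 ± 0.26 (adjusted p = 0.011). Sod3, the extracellular superoxide dismutase gene, fell by 1.63 ± 0.20. Falls were also called for the receptor genes Pth1r (-1.35), Vipr1 (-1.39) and Pdgfra (-1.59), the growth factor gene Hgf (-0.98), the angiopoietin-like gene Angptl6 (-0.99), the cytoglobin gene Cygb (-1.36) and the N-cadherin gene Cdh2 (-1.5). Pdgfra lost its call without WT replicates 2 or 3 or Stab2KO replicates 2 or 3 (adjusted p up to 0.10), Hgf without any array but Stab2KO replicate 1 (up to 0.23), Cdh2 without WT replicates 2 or 3 or Stab2KO replicate 2 (up to 0.062), and Cygb and Angptl6 without Stab2KO replicate 2 (0.056 and 0.053).

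Further genes that fell were Fam171b (-1.32), Disp2 (-0.91), which encodes a relative of the hedgehog release protein dispatched, the nuclear receptor gene Nr1h5 (-1.40), the phosphodiesterase gene Pde1a (-0.74), Naalad2 (-0.68) and Baalc (-0.54). Ms4a4d (-1.39) fell too, with an uncertain value, as it has close paralogs. Baalc lost its call without any one of the 6 arrays (adjusted p up to 0.18), Pde1a without any but Stab2KO replicate 1 (0.13), Ms4a4d without any but WT replicate 3 (0.14), Naalad2 without WT replicates 1 or 2 or Stab2KO replicates 2 or 3 (0.076), Nr1h5 without WT replicate 3 or Stab2KO replicates 2 or 3 (0.12), and Disp2 without Stab2KO replicate 2 (0.062). The WT means of Naalad2, Baalc and Pde1a, at 4.64, 4.13 and 4.8, lay below the array median of 5.11, where an unknown share of the signal is background.

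Other falls, like many of those above such as Bmp10, Cxcl12 and Hhip, lay outside the stellate list. Ass1 encodes argininosuccinate synthase, which hepatocytes use in the urea cycle and endothelium in recycling citrulline to arginine for nitric oxide. It measured 8.29, 8.58 and 7.05 in WT and 5.66, 5.56 and 5.10 in Stab2KO. WT replicate 3 was the lowest WT pool and still above each Stab2KO pool, and Ass1 fell by 2.54 ± 0.33 (adjusted p = 0.010). The next enzyme of that pathway, encoded by Asl, differed by 0.01 ± 0.09, and the endothelial nitric oxide synthase gene Nos3 by 0.11 ± 0.11. The other 18 measured genes of the urea cycle and nitric oxide were not called, and 16 other hepatocyte genes were not called either. The mean of the 17 hepatocyte genes relative to the 12 arrays was -0.37 to 0.71 in WT and -0.56 to -0.20 in Stab2KO, ranges that overlap, and its part in the fall of Ass1 was not tested.

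Lrmda, a leucine-rich repeat gene linked to melanocyte differentiation in humans, measured 8.64, 8.44 and 8.30 in WT and 6.38, 6.21 and 6.34 in Stab2KO, and fell by 2.15 ± 0.16 (adjusted p = 0.00032). Its arrays lay close together within each group, and the call held without each of the 6 arrays. Cnmd, which encodes chondromodulin, an inhibitor of vessel growth in cartilage, fell by 1.5 ± 0.19 (adjusted p = 0.010) and lost its call without WT replicate 2 or Stab2KO replicate 2 (up to 0.062). Itgb3, the beta-3 integrin gene, fell by 0.79 ± 0.12 (adjusted p = 0.022), a call lost without any array but WT replicate 2 (up to 0.11). Gpx3, which encodes the secreted glutathione peroxidase, fell by 0.90, the monocarboxylate transporter gene Slc16a9 by 0.75 and the transporter gene Mfsd4b1, which has close copies, by 0.58. Slc16a9 and Mfsd4b1 lost their calls without any one of the 6 arrays (adjusted p up to 0.23 and 0.14), and Gpx3 without WT replicates 1 or 3 or Stab2KO replicates 1 or 2 (0.13).

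Genes of major histocompatibility complex (MHC) class I, which present peptides on the cell surface, split in both directions. H2-T23, the gene of the nonclassical molecule Qa-1, measured 10.51, 10.42 and 10.26 in WT and 8.77, 9.35 and 9.09 in Stab2KO, and fell by 1.33 ± 0.16 (adjusted p = 0.0072). H2-Q7 fell by 1.05 ± 0.17 (adjusted p = 0.029). H2-T10, which is annotated as a transcribed pseudogene, measured 6.62, 6.63 and 6.66 in WT and 8.0, 8.55 and 7.62 in Stab2KO. It was the only called rise of this list, at 1.42 ± 0.22 (adjusted p = 0.027). All 3 have near-identical copies, so probes may be shared between them or be affected by sequence differences between alleles, and their values are uncertain. The classical gene H2-K1 (0.21 ± 0.09) and the transporter and proteasome genes Tap1 (0.24 ± 0.10) and Psmb9 (0.29 ± 0.08) lay above WT and were not called. The classical gene H2-D1 differed by -0.04 and was not called either. The median of 24 measured class I and antigen processing genes was 0.02, with 13 above WT and 11 below. H2-Q7 lost its call without any one of the 6 arrays (up to 0.14), H2-T10 without any but Stab2KO replicate 3 (up to 0.13), and the count of called genes on this list was 1 without WT replicate 1, 2 or 3.

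Some of the called genes lie close together. On chromosome 17, 7 of 1132 genes tested were called (0.618%). Of them 6, Msh5, H2-Q7, H2-T23, H2-T10, Pla2g7 and Clic5, lie in a span of 191 tested genes whose median difference was 0.02. The ends of this span were set by these 6 calls, with the remaining called gene of the chromosome left out. That it holds all 6 is thus no evidence of clustering. Neighbours in gene order included Sapcd1 at 0.40 and Clic1 at 0.36 beside Msh5, and Ankrd66 at 0.04 beside Pla2g7. Others were H2-T22 at -3.97 beside H2-T23 and H2-Bl at 0.77 beside H2-T10, neither called. On chromosome 10, which carries Stab2, 10 of 1104 genes tested were called (0.906%), counting Stab2 itself. The share called over all genes tested was 0.296%, and the next highest chromosome, 3, had 0.535%. These shares were not tested. Within 20 Mb of Stab2, 7 of 435 tested genes other than Stab2 were called (1.61%), Nt5dc3, 1700113H08Rik, Cep83os, Col6a1, Dcn, Lum and Slc16a9. The gene model 1700113H08Rik lies on the other side of Stab2 from Nt5dc3 and measured 4.14, 4.07 and 3.93 in WT and 5.0, 4.90 and 4.52 in Stab2KO, all below the array median, a rise of 0.76 ± 0.13 (adjusted p = 0.037). Igf1, the next gene on that side, which was looked up after its value was seen, differed by -1.09 ± 0.30 and was not called (adjusted p = 0.30). Cep83os, an antisense gene, fell by 1.56 ± 0.21 (adjusted p = 0.011) and lost its call without WT replicate 3 (adjusted p = 0.070). Tdg-ps2, a pseudogene also on chromosome 10 with a near-identical parent gene, measured 4.99, 5.25 and 5.21 in WT and 7.57, 7.08 and 6.88 in Stab2KO, a rise of 2.03 ± 0.32 (adjusted p = 0.029). The rise of 1700113H08Rik was lost without any array but Stab2KO replicate 3 (up to 0.18) and that of Tdg-ps2 without any one of the 6 (up to 0.12). Of the 7 genes within 20 Mb, Nt5dc3, 1700113H08Rik and Cep83os were also called in DKO minus Stab1KO, where 0.945% of all genes were called. Dcn, Lum and Col6a1 differed by -0.16, 0.06 and 0.01 there, and by -2.19, -2.61 and -0.76 in Stab1KO minus WT. Slc16a9 differed by 0.11 and -0.25. For Nt5dc3, 1700113H08Rik and Cep83os, loss of Stab2 and a chromosome segment inherited with the targeted allele cannot be told apart. For chromosome 17 a segment particular to the Stab2KO mice was not tested.

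**Figure D3:**
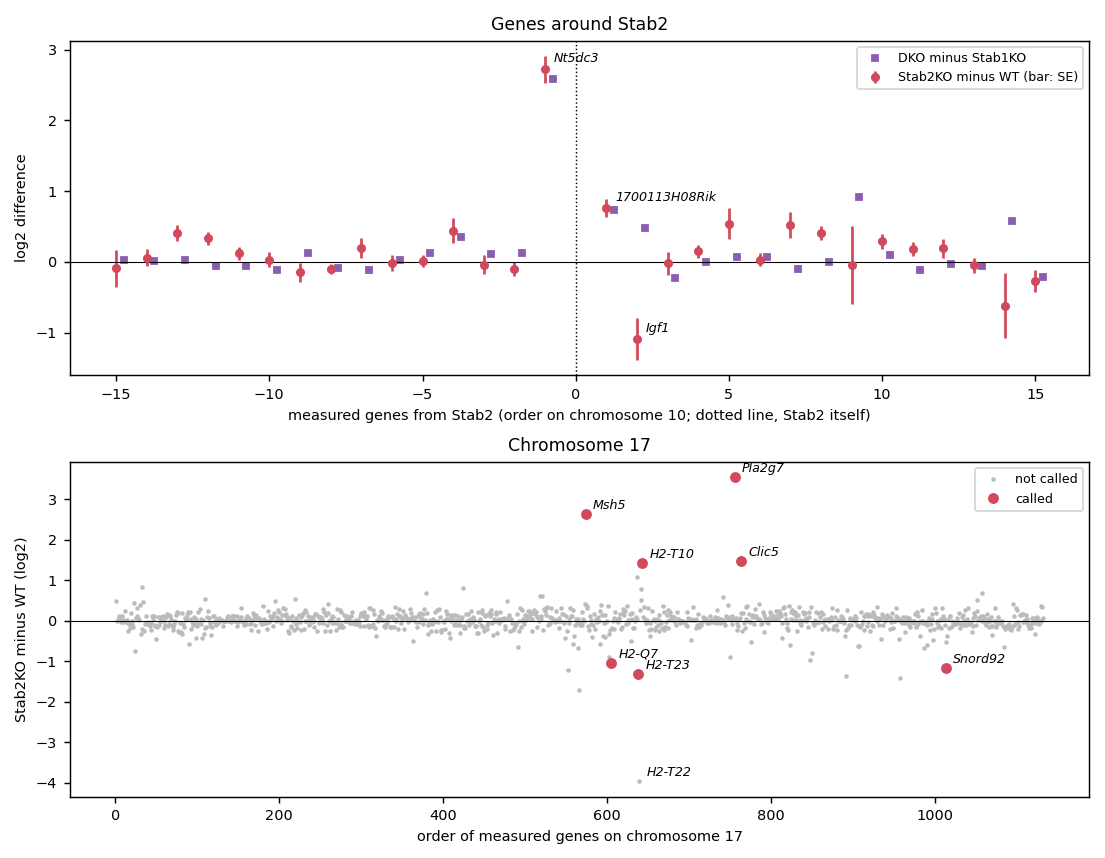
Top, log2 differences of the measured genes around Stab2 in their order on chromosome 10, for Stab2KO minus WT and DKO minus Stab1KO, with Nt5dc3 high in both at 2.72 and 2.58 and bars for the SE. Bottom, Stab2KO minus WT for all 1132 measured genes of chromosome 17 in order. Of the 7 called genes, 6 lie within a span of 191 genes whose ends were set by those 6.

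Markers of other cells of the liver were compared list by list. Kupffer cell and macrophage genes lay below WT in 17 of 17 cases with a median of -1.19, and 0 of 17 were called. The mean of the list relative to the 12 arrays was -0.62, 1.22 and 0.59 in the WT pools and between -0.97 and -0.60 in the Stab2KO pools, so WT replicate 1 lay within the range of Stab2KO. Leaving out WT replicate 2 gave a median of -0.69, and leaving out WT replicate 1 gave -1.79. Vsig4, the complement receptor gene of Kupffer cells, measured 7.36, 9.99 and 9.27 in WT and 6.73, 7.43 and 6.97 in Stab2KO (-1.83 ± 0.59). The stellate and hepatocyte lists had the same order of the WT pools, lowest in WT replicate 1 (list means of 0.76 and -0.37 log2 relative to the 12-array mean) and highest in WT replicate 2 (1.22 and 0.71). On the stellate list WT replicate 1 lay above each Stab2KO pool, and on the hepatocyte list it lay among them. The part of the other cells in the stellate falls was not tested.

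Large-vessel and continuous endothelial genes had a median of 0.32, with 17 of 20 above WT and only Gja5 called. The number called was 3 with WT replicate 1 left out, and 0 with WT replicate 2 or 3 or Stab2KO replicate 1 or 2 left out. Leaving out Stab2KO replicate 3 gave 0.17, and leaving out WT replicate 2 gave 0.21. Fbln2, the fibulin-2 gene, measured 8.79, 7.37 and 8.05 in WT and 9.38, 9.33 and 9.29 in Stab2KO (1.26 ± 0.27, adjusted p = 0.13), and Cd34 differed by 0.63 ± 0.13 (adjusted p = 0.097). Natural killer and T cell genes had a median of 0.33 with 0 of 19 called (0.51 with WT replicate 3 left out), and neutrophil genes 0.15 with 0 of 14 called (-0.14 with Stab2KO replicate 3 left out, 0.06 and 0.09 with WT replicates 1 and 2 left out, and 0.24 with Stab2KO replicate 2 left out). The neutrophil list mean was 11.49 in DKO replicate 3, against 5.26 to 6.49 in the other arrays, and that array enters the shared spread. Camp thus had an SE of 1.55, beside SDs of 0.06 in WT and 0.11 in Stab2KO, so the 12-array fit could hardly call it. With DKO replicate 3 left out, 0 neutrophil genes were called as well. Monocyte and dendritic cell (12), platelet and erythroid (9) and bile duct genes (7) had medians of 0.06, -0.03 and 0.20 with 0 called. Their signs were not stable: they ranged from -0.08 to 0.10, -0.08 to 0.16 and -0.04 to 0.30 with 1 of the 6 arrays left out, the negative values coming without WT replicate 1 for the first 2 lists and WT replicate 2 for the last. Reln was the called gene of 9 lymphatic ones (-0.14), a call lost without any one of the 6 arrays. LSEC identity genes beside Stab2 had a median of -0.02 with 0 of 28 called, and the 3 members with the largest differences were Wnt9b (0.40 ± 0.19), Rspo3 (0.40 ± 0.26) and Plxnc1 (-0.34 ± 0.13). The part of these cell types in the called differences was not tested.

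**Figure D4:**
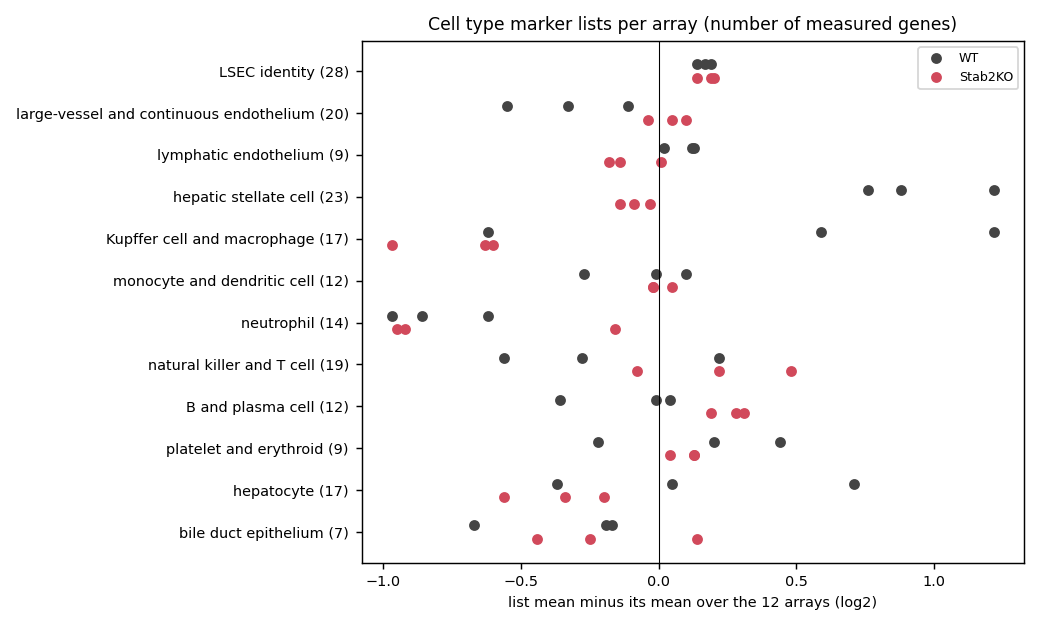
Mean of each cell type list relative to its mean over the 12 arrays (horizontal axis, log2), 1 point per WT or Stab2KO array, with the number of genes in parentheses. The stellate list is separated, at 0.76 to 1.22 in WT and -0.14 to -0.03 in Stab2KO, while WT replicate 1 lies among the Stab2KO arrays on the Kupffer cell list.

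The machinery in which stabilin-2 works did not pass the test. Of 27 scavenger and endocytic receptor genes besides Stab2, 0 were called, with a median of -0.07. The mannose receptor gene Mrc1 measured 13.23, 13.21 and 13.21 in WT and 13.18, 13.15 and 13.15 in Stab2KO, and Lyve1, a hyaluronan receptor gene, differed by -0.13 ± 0.11. The receptors with the largest differences were Cd163 (-1.5 ± 0.48) and Lrp1 (-1.30 ± 0.32), and Cd163 is also on the Kupffer cell list. Of 19 genes of hyaluronan synthesis, uptake and breakdown 0 were called, with a median of -0.02 and the largest difference in Itih3 (-0.41 ± 0.23). The hyaluronan synthase genes Has1, Has2 and Has3 had WT means of 4.12, 3.84 and 4.64, below the array median. Endocytosis machinery (22 genes) and lysosome (21 genes) had medians of 0.01 and 0.00 with 0 called in each. Of 12 genes of protein ligands of the stabilins, Postn and Reln fell, while Tgfbi differed by -1.34 ± 0.46 without passing and Sparc measured 12.66, 12.90 and 12.90 in WT and 12.78, 12.89 and 12.83 in Stab2KO.

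None of the 20 measured cell cycle genes lay below WT and none was called; their median was 0.28. Aurka, a mitotic kinase gene, measured 5.98, 5.71 and 5.69 in WT and 6.69, 6.52 and 6.21 in Stab2KO (0.68 ± 0.20, adjusted p = 0.38). Leaving out WT replicate 1 gave a list median of 0.15, and leaving out Stab2KO replicates 1 and 3 gave 0.17 and 0.46. The lists of leukocyte adhesion (14 genes), MHC class II (10), interferon-stimulated (22), immediate early (24), base excision repair (12), coagulation (16), Notch (15), cholesterol and fatty acid synthesis (13), endoplasmic reticulum stress (14) and circadian genes (14) had 0 called, with medians between -0.10 and 0.16. Hhip was the called gene of 19 Wnt and hedgehog genes (median 0.07), Postn of 16 transforming growth factor beta genes (0.11), Cxcl12 of 20 chemokine genes (0.04) and Angptl6 of 18 vascular growth factor genes (-0.09).

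The same gene was lost in a second background, in DKO against Stab1KO. These 6 arrays do not enter the group means compared in Stab2KO against WT. They do enter the estimate of each gene's spread, which both contrasts share, so calls in both are not independent. In DKO against Stab1KO 227 genes were called (0.945%), 131 higher (0.546%) and 96 lower (0.4%). Of the 20 genes called higher in Stab2KO, 17 had the same sign there and 5 were called higher, namely Nt5dc3, Tdg-ps2, 1700113H08Rik, Cavin3 and Wdfy1. Their median was 0.43, against 0.94 in Stab2KO. Of the 50 genes called lower besides Stab2, 33 had the same sign and 3 were called lower, Ass1, Cep83os and a small nucleolar RNA gene. Their median was -0.16, against -1.37 in Stab2KO. Ass1 measured 8.13, 7.88 and 8.47 in Stab1KO and 5.33, 5.42 and 5.36 in DKO, so that its fall was nearly of the same size there (-2.79 ± 0.33, adjusted p = 0.0074). Cavin3 rose by 0.76 and Wdfy1 by 0.53 in that contrast. Pla2g7 (0.68 ± 0.55), Msh5 (0.04 ± 0.28), Clic5 (0.42 ± 0.17) and Lrat (-0.66 ± 0.26) were not called there. Leaving out Stab1KO replicates 2 and 3 turned the 227 into 22 and 28, and leaving out DKO replicates 1 and 3 turned it into 115 and 357.

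Whether DKO minus Stab1KO differed from Stab2KO minus WT was tested directly, and 12 of 24011 genes passed (0.05%). Of these, 5 were among those called in Stab2KO against WT. Whether the genotype groups differed in more than the stabilins was not tested. Lum fell by 2.14 with Stab1 present and differed by 0.06 without it, where its level was already 3.62 to 3.78 in Stab1KO. Agtr1a differed by -1.64 and 0.26, Sod3 by -1.63 and 0.82, Lrmda by -2.15 and -0.26, and Nnt by 0.89 and -0.58. Lrmda was at 8.51, 8.33 and 8.39 in Stab1KO and at 8.35, 8.38 and 7.72 in DKO, near the WT level in both. Msh5, with differences of 2.63 and 0.04, had an adjusted p of 0.054 in this test, and Pla2g7 0.16.

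**Figure D5:**
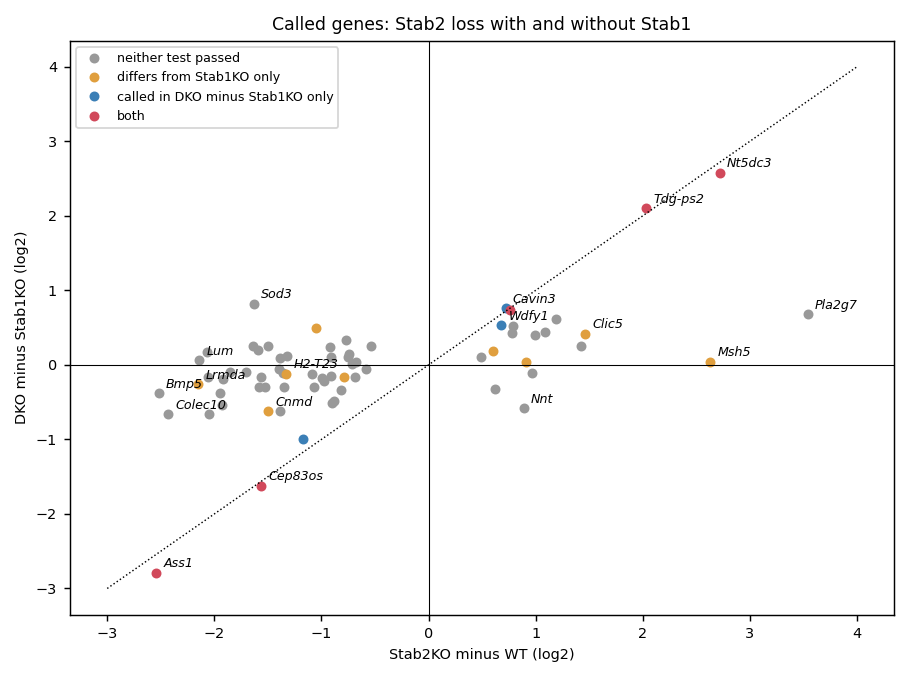
Each called gene, without Stab2, by its difference in Stab2KO minus WT (horizontal axis, log2) and in DKO minus Stab1KO (vertical axis, log2). The differences share no array, while the tests share each gene's estimate of spread. The dotted line marks equal values and colours mark which other tests passed; Nt5dc3 (2.72 and 2.58) and Ass1 (-2.54 and -2.79) lie near equal values on both axes, while Msh5 (2.63 and 0.04) and Bmp5 (-2.52 and -0.38) lie near 0 on the vertical axis.

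Stab2KO was also set against Stab1KO, a contrast whose group means leave out the WT arrays and share the Stab2KO arrays with the main comparison. It had 26 called genes (0.108%), 12 higher (0.05%) and 14 lower (0.0583%). Of the 20 genes called higher against WT, 7 were also higher than in Stab1KO: Nt5dc3, Msh5, Tdg-ps2, Clic5, Ciapin1, 1700113H08Rik and Ecm2. Of the 50 called lower, 7 were also lower than in Stab1KO: Ass1, Lrmda, H2-T23, H2-Q7, Cnmd, Cep83os and Itgb3. None of these 7 is on the stellate list. Lrmda differed from Stab1KO by -2.10 (adjusted p = 0.00033), and Ass1 by -2.72 (adjusted p = 0.0097). Against WT, the 50 genes called lower had a median of -1.37 in Stab2KO and -1.41 in Stab1KO. For the 20 called higher the medians were 0.94 and 0.20. Most of the falls were thus not particular to Stab2KO, though the genes were chosen by values in the shared WT arrays. The 5 stellate genes with the largest falls are given beside the other genotypes. Bmp5 differed from WT by -2.52 in Stab2KO, -3.32 in Stab1KO and -3.70 in DKO, and Lum by -2.14, -2.61 and -2.55. Lrat differed by -2.05, -3.01 and -3.68, Colec11 by -1.93, -2.60 and -3.14, and Reln by -1.92, -2.62 and -2.81. These 3 comparisons share the WT arrays, and none of these 5 genes passed the test between Stab2KO and Stab1KO (adjusted p = 0.34 to 0.72). Leaving out Stab1KO replicate 1 turned the 26 into 13, Stab2KO replicates 1 and 2 into 17 and 12, and DKO replicate 3 into 43.

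Among genes that were not called, 4 differed by at least 2 log2, and they were picked out after their values were seen. H2-T22, next to H2-T23 and with near-identical copies, measured 9.89, 9.58 and 9.49 in WT and 3.6, 7.5 and 5.95 in Stab2KO (-3.97 ± 0.71, adjusted p = 0.056). In Stab1KO and DKO it lay between 9.65 and 10.17. Hamp, which encodes the iron hormone hepcidin of hepatocytes, measured 4.8, 4.97 and 5.53 in WT and 7.08, 7.15 and 8.86 in Stab2KO (2.60 ± 0.46, adjusted p = 0.056). Ifi208, an interferon-inducible gene, measured 7.29, 7.38 and 7.34 in WT and 5.99, 3.39 and 3.33 in Stab2KO (-3.10 ± 0.59, adjusted p = 0.077). Steap4, a metalloreductase gene, measured 8.27, 9.41 and 8.46 in WT and 6.76, 6.67 and 6.20 in Stab2KO (-2.17 ± 0.67, adjusted p = 0.41, and 0.0091 without DKO replicate 3). The groups of each of the 4 genes were apart, which held for 15.7% of all genes tested, with an exact permutation p of 0.1, the smallest possible. As the 4 were picked for their large differences, this separation is no independent evidence.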

How the data were processed

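Per the labels, RNA of pooled LSECs was hybridised to Affymetrix arrays. The deposited values are log2 expression, 1 per gene identifier and array, and per the submitters' processing notes they come from RMA, which includes background correction, quantile normalization and probe summarization. Its version, the probe set definition and the genome build are, for these files, not given in the sources used here. No scanner intensities or detection calls were used, so low values include background to an unknown extent, and the number of arrays limits the precision.

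Of 24973 rows, 24015 had 1 symbol in the platform annotation, 0 had several and 958 had none. Of rows with a common symbol, that of highest mean was kept, and 4 were dropped. RefSeq (GRCm38.p6) gave a position to 23918 of the 24011 genes and was used for gene order and promoters. limma 3.58.1 in R 4.3.3 fitted 4 group means over the 12 arrays, with two-sided moderated tests and Benjamini-Hochberg adjustment over all genes within 6 contrasts. The threshold for a call was an adjusted p of 0.05, and all adjusted p-values are limma's. The script was tested on simulated data.

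The comparison, the 43 gene lists (671 of 707 genes measured) and the tests were chosen with earlier results of these data known, so lists are described by counts and medians without a test. By rule, named genes were Stab2, Stab1 and the neighbours of Stab2, each called gene with an ordinary symbol (the 15 largest rises and falls by array), called list members, and up to 3 members of lists with none called. Some uncalled genes outside this rule were named as well, such as Pdgfrb, Rbp4, Fbln2, H2-K1 and Tgfbi. A called gene that fell is not reported here by name. Alternatives were a replicate block, a filter keeping genes above the 40th percentile of mean signal, trend and robust eBayes, array weights, further normalization, other row rules, a minimum log2 difference of 1, the compared arrays alone and each array left out.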

Additional observations from a re-analysis of the deposited data

Results flagged for a closer look

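For 5 genes called in Stab2KO against WT, that difference departed from DKO minus Stab1KO by the test of the difference itself. The values below are DKO minus Stab1KO less Stab2KO minus WT (limma). Whether the genotype groups differed in more than the stabilins, such as in substrain, was not tested. Lum had the lowest adjusted p, with a difference of 2.20 ± 0.19 log2 (SE, adjusted p = 0.0016). The difference was 2.45 ± 0.29 for Sod3, 1.90 ± 0.24 for Agtr1a and 1.89 ± 0.23 for Lrmda (adjusted p = 0.025 each). Of these, Lum, Sod3 and Agtr1a were already low in Stab1KO, at -2.61, -2.32 and -1.83 against WT, while Lrmda was at -0.05. Lum lay at 3.62 to 3.78 in Stab1KO and 3.72 to 3.81 in DKO, below the array median of 5.11, so a further fall there may not have been measurable. The difference between the effects was -1.47 ± 0.21 for Nnt (adjusted p = 0.047), the only one of the 5 that rose with Stab1 present.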

How the results depend on the processing

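Of the 69 named genes called in Stab2KO against WT, 27 kept the call without each of the 6 arrays in turn and 15 under every alternative run, and no value changed sign. The 71 calls became 148 with array weights (56.1% lower instead of 71.8%), 42 with a minimum log2 difference of 1, and 29 with the 6 arrays alone, of which 23 were among the 71. Leaving out 1 array gave 33 to 92. For DKO against Stab1KO the 227 calls became 466, 86 and 18 under the same settings, and 22 to 357 with 1 array left out. For Stab2KO against Stab1KO the 26 became 41, 17 and 15, and 12 to 43. For the difference between backgrounds the 12 became 199 with array weights, 28 with the filter on low signal, 35 with trend and robust options, and 3 to 112. Of 67 uncalled genes named by the stated rule, H2-Oa and Aurka passed with array weights (adjusted p = 0.020 and 0.040). Uncalled genes named outside that rule were not part of this count. The causes of these shifts were not tested.

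Replicate numbers 1 to 3 occur in each genotype, but same-numbered WT and Stab2KO arrays deviated together only weakly (correlations of 0.024, 0.033 and 0.054), so the numbers were not taken to pair the samples. With the replicate number as a block the counts were 68 (56 shared with the 71), 270, 18 and, for the difference between backgrounds, 6.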
